A study of Mus musculus with 8 samples.

Results

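The CLIC family (chloride intracellular channels) was measured with 5 genes, Clic1, Clic3, Clic4, Clic5 and Clic6, found by gene name among the 34650 gene and transcript names of a 1-colour Agilent mouse array. They carry 6 of its 55681 probes and 15 of its 59305 non-control spots, since Clic4 has 2 probes, of which 1 is printed 10 times. The labels name the RNA source as kidney and the mice as CD-1, which are outbred. The 4 control samples came from mice given physiological serum. The 4 tacrolimus samples came from mice given tacrolimus, a calcineurin inhibitor used as an immunosuppressant, at 1 mg/kg/day for 28 days. The labels give neither age nor sex and do not say whether each numbered replicate is a separate animal, so the p-values measure only the spread between these samples. The family was selected on a measured value, the large tacrolimus difference of Clic6. That difference is therefore described here without a test. The other members follow from the family name and not from their values.

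CLIC proteins are small globular proteins with the fold of omega-class glutathione transferases and a glutaredoxin-like site, and can pass from a soluble to a membrane-bound form. Several of them bind ezrin, radixin and moesin, which tie membranes to the actin cytoskeleton, and have been linked to the shaping of tubes, lumens and microvilli. In the kidney CLIC5 is known from podocyte foot processes and glomerular endothelium, CLIC4 from vessel and tubule lumen formation, and CLIC1 from many cells including macrophages. CLIC3 is known from endosomal recycling of integrins, and CLIC6, which carries a long N-terminal extension, from secretory epithelia such as the choroid plexus.

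Because each value rests on 1 or 2 short probes, the first 30 bases of each 60-base probe are shown as the array design gives them, all in lower case since no base is singled out. The array design assigns both Clic4 probes to 1 transcript, at the separate start positions given below. Whether position bears on the unlike array patterns of those probes was not tested.
Clic1: gatagtggacaagggtaagatttttatttt
Clic3: aaggagttcaagtatacgtgtccacacagc
Clic4 probe of 10 spots: taacattagctttcgtagcagtttatacca
Clic4 probe of 1 spot: tgctccgcctcctaaagtagaagtgtattt
Clic5: caagccttactcaatgtaccacgcctttga
Clic6: gctcttgtgacattcaaacttggtaaatga

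On mm9, the assembly named in the file headers, the Clic6 probe lies on the plus strand of chromosome 16 from 92541363 to 92541422 and starts at base 3619 of its transcript. The Clic4 probe of 10 spots lies on the minus strand of chromosome 4 from 134770416 to 134770475, at transcript base 3473, and the other Clic4 probe from 134772898 to 134772957, at base 991. The Clic1 and Clic5 probes lie on the plus strand of chromosome 17, from 35195587 to 35195646 and from 44416979 to 44417038. The Clic3 probe lies on the plus strand of chromosome 2 from 25314169 to 25314228, at transcript base 675. No exon annotation of mm9 was used here, so the probes are not placed in exons or UTRs, nor were they searched against other transcripts.

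Levels are given as log2 of the processed signal after subtracting each array's own 75th percentile; every difference is the tacrolimus mean minus the control mean. Per array, 64.0% to 69.8% of non-control spots passed the scanner software's test for being well above background, and none was saturated. Having 4 arrays a group limits the precision. All 8 arrays shared 1 slide with the groups in separate rows, so that row and treatment cannot be told apart. The labelled tissue was checked against markers: all 7 proximal tubule markers, all 5 markers of the thick ascending limb and distal tubule and all 7 collecting duct markers were well above background on all 8 arrays. In whole-kidney RNA, fewer cells of a type and less RNA per cell cannot be told apart.

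Clic6 was near background in the control kidneys and measurable in every tacrolimus kidney. The mean intensity of its spot was 41.9, 31.5, 30.4 and 32.5 scanner units on control replicates 1 to 4, over a local background of 21 or 22 units, and on none of them was it well above background. On tacrolimus replicates 1 to 4 it was 72.9, 189, 65.5 and 77.1 units over a local background of 18 or 19, and it was well above background on all 4. The groups did not overlap, and tacrolimus replicate 2 stood highest, at 9.96 times its local background against 3.64 to 4.29 times on the other 3.

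**Figure D1:**
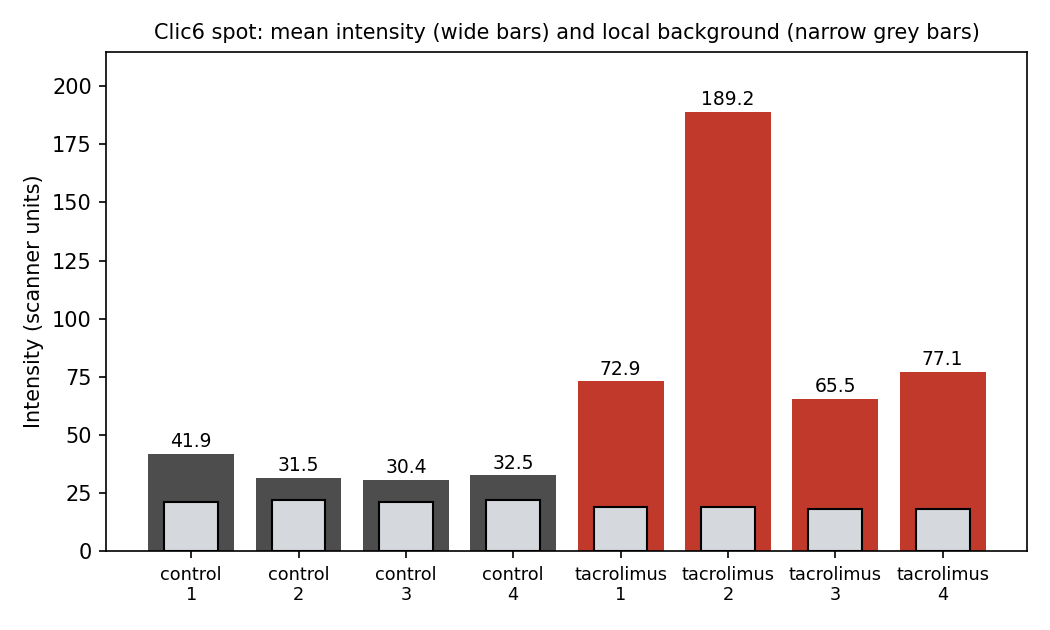
Mean intensity of the single Clic6 spot on each array (wide bars, scanner units; dark for control, red for tacrolimus) with the local background of the same spot (narrow grey bars). Control spots read 30.4 to 41.9 units and tacrolimus spots 65.5 to 189 units.

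After scaling, the Clic6 level was -7.10, -8.27, -8.12 and -8.31 on the control arrays and -4.75, -2.61, -4.16 and -4.03 on the tacrolimus arrays. The means were -7.95 ± 0.57 and -3.89 ± 0.91 (SD, n = 4 per group). The control values are read only as bounds, since the spot was well above background on no control array. On control replicate 1 it still lay above the lowest signal that passed there (-7.29), and on the other control arrays below it. That lowest signal is therefore not a strict detection limit, and the bound below is approximate. The bound sets Clic6 against the lowest signal that was well above background on each control array, or the probe's own signal where that was higher. In the processed signal used here, Clic6 was at least 5.16-fold higher under tacrolimus by this measure. Without tacrolimus replicate 2 the bound was 3.85-fold, and without tacrolimus replicate 1 it was 6.30-fold, these being the extremes over the 8 arrays left out in turn. The fitted difference of 4.06 ± 0.46 (SE) exceeds the bound because it takes the unresolved control signals at face value. The log2 difference was 1.05 with normexp background correction, which adds an offset to the signal, and 1.56 in the deposited table, which subtracts no background. Both are smaller than the bound, which therefore does not hold across ways of processing.

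Of the 5 members, 1 (Clic6) was called at an adjusted p under 0.05 (limma), where 0.227% of the 25127 genes and unnamed transcripts tested were called. Nothing is read from that count, since this difference chose the family.

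The other 4 members were bright enough to be well above background on all 8 arrays, and none was called. Clic3 and Clic5 were lower on every tacrolimus array than on any control array, Clic1 was higher on average with overlapping groups, and both Clic4 probes had small negative differences. These 4 pointed in different directions: fitted differences ran from -0.40 for Clic5 to 0.26 for Clic1, beside a median of -0.05 over all genes tested.

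**Figure D2:**
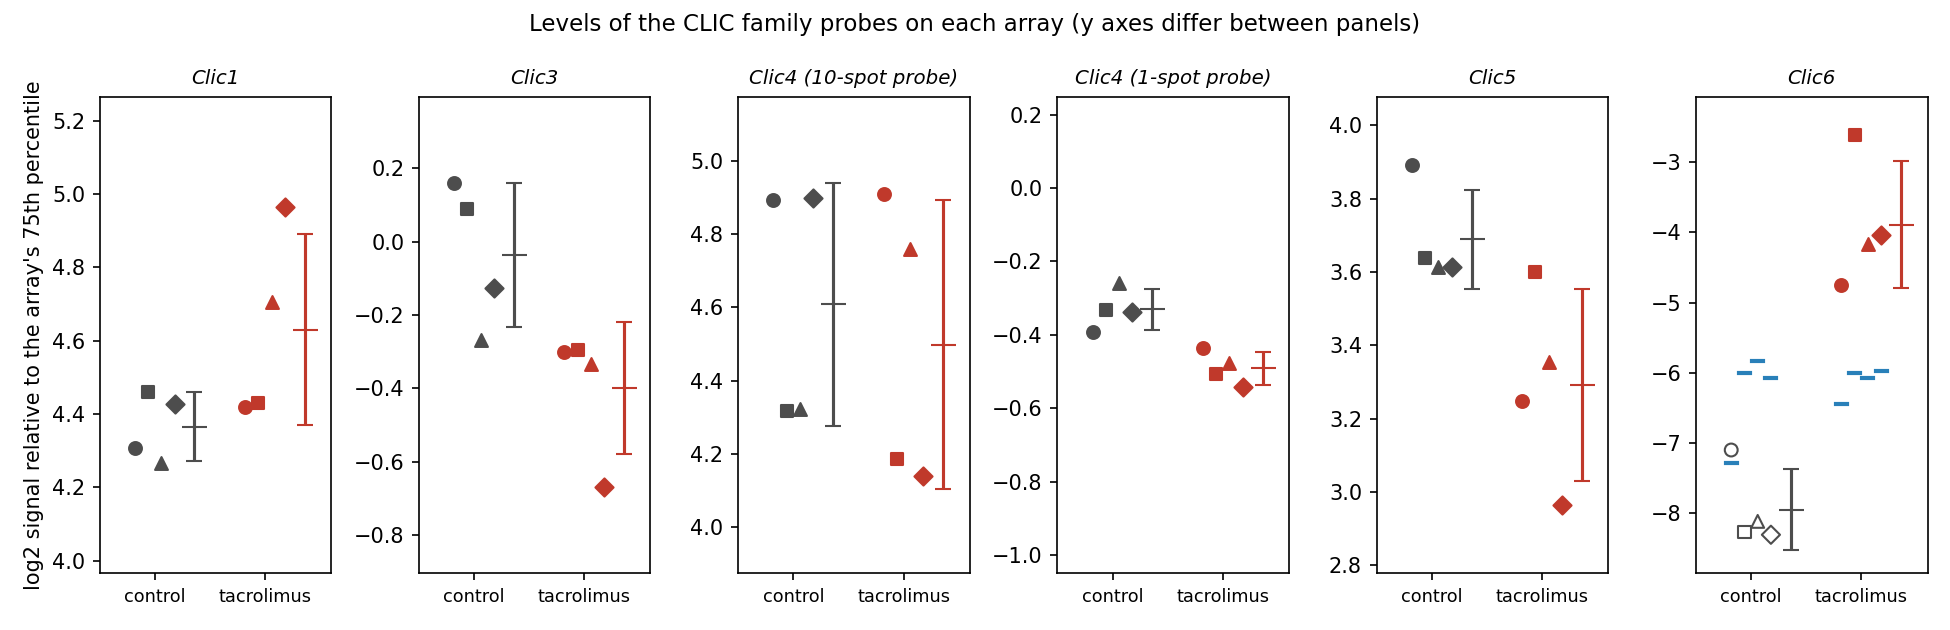
Level of each CLIC probe on each array, as log2 signal relative to the array's 75th percentile; markers give replicates 1 to 4 (circle, square, triangle, diamond), bars the mean and SD of 4 arrays, open symbols spots not well above background, and blue dashes (Clic6 only) the lowest level well above background on that array. The Clic6 axis spans more than the others; Clic3, Clic5, the 1-spot probe of Clic4 and Clic6 show no overlap between groups.

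Clic5 couples podocalyxin and ezrin to the actin of podocyte foot processes, and its loss in mice also affects the hair cells of the inner ear. Its level was 3.89, 3.64, 3.61 and 3.61 on control replicates 1 to 4 and 3.25, 3.60, 3.35 and 2.97 on tacrolimus replicates 1 to 4. The lowest control array and the highest tacrolimus array were only 0.01 apart. Control replicate 1 was the highest and tacrolimus replicate 4 the lowest. The difference was -0.40 ± 0.14 (SE; 95% interval -0.72 to -0.07), a level 1.32-fold lower, with an unadjusted p of 0.0229 and an adjusted p of 0.253 (limma).

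Podocyte markers were set beside Clic5. The summed level of the 8 podocyte markers, all well above background on every array, ranged from 4.96 to 5.33 on the control and from 4.75 to 5.10 on the tacrolimus arrays, on the log2 scale. In this list 7 of 8 genes had a negative difference, none passed an unadjusted p under 0.05 (limma), and the median was -0.07 beside -0.05 over all genes. The slit diaphragm gene Nphs1 (nephrin) differed by -0.35 ± 0.18 (SE; unadjusted p = 0.0818, limma). The 8 endothelial markers had a median difference of -0.07, and their summed level ran from 5.85 to 6.11 over the 8 arrays with the groups overlapping. The part of either cell type in the Clic5 difference was not tested.

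Clic3 encodes a member linked to late endosomes and the return of integrins to the cell surface. Its level was 0.16, 0.09, -0.27 and -0.13 on the control arrays and -0.30, -0.29, -0.33 and -0.67 on the tacrolimus arrays. Tacrolimus replicate 4 stood well below the other 3, which lay between -0.33 and -0.29. The difference was -0.36 ± 0.13 (SE; 95% interval -0.66 to -0.06), with an unadjusted p of 0.0249 and an adjusted p of 0.258 (limma). The exact two-sided permutation p was 0.0286 for Clic3 and for Clic5, the smallest that 4 against 4 arrays can give.

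The groups thus did not overlap for 3 of the 5 genes, Clic3, Clic5 and Clic6, read on the probe that represents each, where 10.1% of all genes tested did not overlap. Clic6 is among them by the choice of the family. At an unadjusted p under 0.05 (limma), 2 of the 4 other members were lower and none was higher, beside 8.42% of all genes lower and 7.04% higher.

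Clic1 is the most widely expressed member and is known in macrophages for its part in phagosome acidification and inflammasome activation. Its level was 4.31, 4.46, 4.27 and 4.43 on the control arrays and 4.42, 4.43, 4.70 and 4.97 on the tacrolimus arrays. The groups overlapped: tacrolimus replicates 1 and 2 lay among the controls, and replicates 3 and 4 above all of them. The difference was 0.26 ± 0.14 (SE; 95% interval -0.05 to 0.58), with an adjusted p of 0.377 (limma) and an exact two-sided permutation p of 0.143.

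Macrophage and dendritic cell markers lay higher under tacrolimus on average. All 8 markers had a positive difference, 7 of them at an unadjusted p under 0.05 and none called (limma), with a median of 1.19. Among all genes tested, 7.04% were higher at that unadjusted threshold and 0.227% were called. For 5 of the 8 markers (C1qa, C1qb, Adgre1, Lyz2 and Cd68) every tacrolimus array lay above every control array. The groups did not overlap, in either direction, for 10.1% of all genes tested. The summed level of the 8 markers ran from 5.20 to 5.67 in controls and reached 6.59 and 6.51 on tacrolimus replicates 1 and 2. The brightest markers weigh most in it, above all Csf1r in controls (mean 4.90), which differed by only 0.06. On tacrolimus replicate 4, the array with the highest Clic1 level, the sum was 5.64, within the control range, though the 5 markers named above exceeded every control there. Adipocyte markers were highest there, with a summed level of 5.49 against 3.41 to 4.05 on the other 7 arrays. Neither was tested as a part of the Clic1 difference.

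Clic4, linked to lumen formation in vessels and tubules and to TGF-beta signalling, varied among arrays in an unlike way at its probes. At the probe of 10 spots the level was 4.89, 4.32, 4.32 and 4.90 on the control arrays and 4.91, 4.19, 4.76 and 4.14 on the tacrolimus arrays. The 8 arrays fell into a high set (control replicates 1 and 4, tacrolimus replicates 1 and 3, from 4.76 to 4.91) and a low set (the other 4, from 4.14 to 4.32), each with 2 arrays per group. The spots of this probe on 1 array had an SD of 0.04 to 0.05, which is technical scatter only, and the sets were drawn after the values were seen. The group difference was -0.11 ± 0.23 (SE; 95% interval -0.63 to 0.41; adjusted p = 0.845, limma). It was 0.010 without tacrolimus replicate 4.

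The 1-spot Clic4 probe did not repeat this split. Its level was -0.39, -0.33, -0.26 and -0.34 on the control arrays and -0.44, -0.51, -0.48 and -0.54 on the tacrolimus arrays, with SDs of 0.05 and 0.04. The groups did not overlap, with 0.04 between the lowest control and the highest tacrolimus array. The difference was -0.16 ± 0.08 (SE; 95% interval -0.34 to 0.02), with an adjusted p of 0.390 over all 36493 probes tested (limma) and an exact two-sided permutation p of 0.0286. The treatment difference of the 10-spot probe minus that of the 1-spot probe was 0.05, with an exact two-sided permutation p of 0.629. Within groups, the SD of Clic4 at its 10-spot probe exceeded that of 80.3% of genes tested, against 46.4% for Clic3, 48.5% for Clic1 and 52.7% for Clic5.

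**Figure D3:**
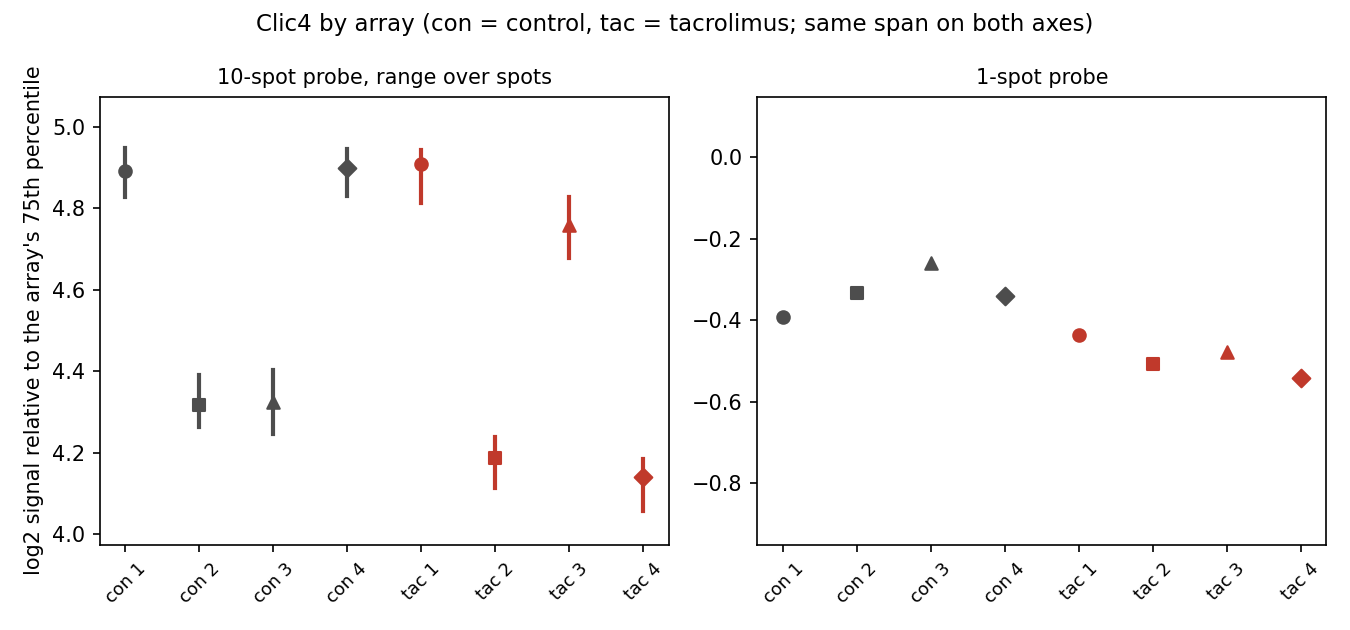
Clic4 on the 8 arrays at its 10-spot probe (left; points are means, lines the range over spots) and its 1-spot probe (right), as log2 signal relative to the array's 75th percentile, on axes of equal span (dark for control, red for tacrolimus). The left panel shows the high set at 4.76 to 4.91 and the low set at 4.14 to 4.32, and the right panel a narrow range from -0.54 to -0.26.

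Clic6 lies between Rcan1 and Runx1 on chromosome 16 in the order of protein-coding genes of the RefSeq GRCm38.p6 table. Its neighbours were compared because Rcan1 encodes a calcineurin regulator that is itself a known NFAT target. The list is not an unbroken run. It leaves out Fam243, Smim34, Gm52236 and Dop1b, within 6 genes of Clic6, and holds Atp5o, Mrps6 and Slc5a3 from farther off. Of 11 genes listed around Clic6, 10 were tested and none was called, where 0.227% of all genes were. At an unadjusted p under 0.05 (limma), 3 were higher and none was lower, beside 7.04% and 8.42% of all genes. The median difference was -0.02. The Rcan1 difference was -0.08 ± 0.13 (SE; 95% interval -0.37 to 0.22; adjusted p = 0.803, limma), with levels of 1.36 to 1.71 in controls and 1.30 to 1.79 under tacrolimus.

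Runx1, a transcription factor of blood development that is also induced in injured epithelium, had the largest difference of these neighbours. Its level was -4.04, -4.33, -4.61 and -4.91 on the control arrays and -3.24, -2.84, -3.72 and -3.53 on the tacrolimus arrays, with no overlap. Tacrolimus replicate 2 was the highest for Runx1, as it was for Clic6. Replicate 1 was the next highest for Runx1 but the lowest tacrolimus array for Clic6 (-4.75). A link between these genes was not tested. The difference was 1.14 ± 0.24 (SE; adjusted p = 0.0831, limma), and a further Runx1 probe differed by 1.15. Setd4 and the carbonyl reductase gene Cbr3 differed by 0.45 ± 0.15 and 0.36 ± 0.13 (adjusted p = 0.230 and 0.258, limma). Cbr1, the other carbonyl reductase, differed by -0.22, the ATP synthase subunit gene Atp5o by -0.16 and the potassium channel subunit gene Kcne1 by 0.02. Slc5a3, the myo-inositol transporter, differed by -0.09, Mrps6 by -0.02 and Smim11 by -0.01. Kcne2, which shares the choroid plexus and stomach with Clic6, did not pass the background test on any of the 8 arrays and was not tested.

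**Figure D4:**
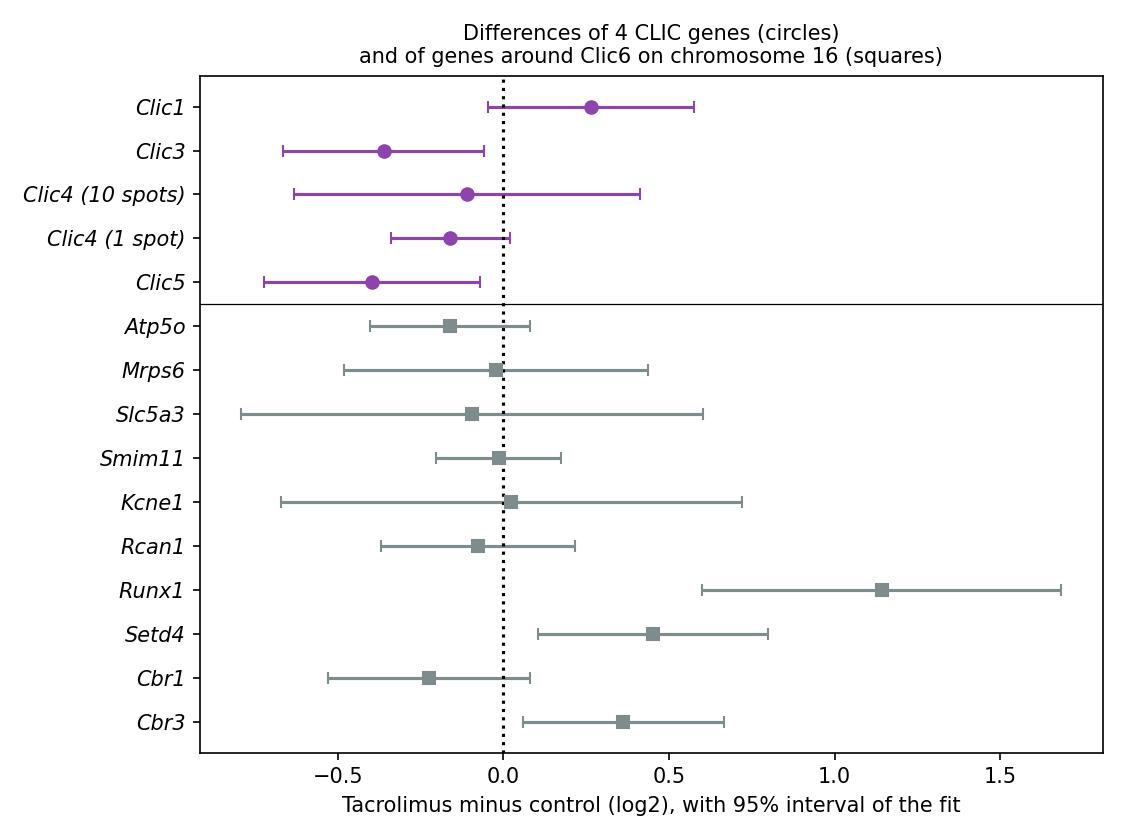
Tacrolimus minus control differences on the log2 scale with the 95% interval of the limma fit, for Clic1, Clic3, both Clic4 probes and Clic5 (circles) and for 10 genes around Clic6 in their chromosomal order (squares). Intervals of Clic3, Clic5, Runx1, Setd4 and Cbr3 lie off 0, though none of these genes was called after adjustment.

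Markers of other cells were set beside the Clic6 levels array by array. All 5 tested urothelium markers had a positive difference, none at an unadjusted p under 0.05 (limma), and their summed level reached 2.35 on tacrolimus replicate 4 and 0.68 on replicate 1. On tacrolimus replicate 2, which had the highest Clic6 level, the urothelium sum was -1.19, the lowest of the 8 arrays, where controls lay between -1.01 and -0.70. Of 6 adipocyte markers tested, 5 were higher at an unadjusted p under 0.05 (limma) and none was called, with differences from 0.23 to 4.66. Among all genes tested, 7.04% were higher at that threshold and 0.227% were called. Of the 6 adipocyte markers, 2 to 5 were well above background on each control array and all 6 on each tacrolimus array. Plin1, which coats fat droplets, was well above background on no control array and, like Clic6, on all 4 tacrolimus arrays. The summed adipocyte level was 3.70 on tacrolimus replicate 2, within the control range of 3.41 to 3.89. Fabp4, the brightest marker (mean 3.65 in controls), dominates this sum in controls and differed by only 0.23. The other 5 differed by 3.11 to 4.66, so the sum does not show their level on that array. The part of adipocytes and urothelium in the Clic6 difference was not tested.

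Tubular injury markers separated the groups in their summed level, where 10.1% of all single genes tested did not overlap. That level was 3.76 to 4.13 in controls and 4.59, 5.54, 4.97 and 4.82 on tacrolimus replicates 1 to 4. Replicate 2 was thus highest here too. Of the 6 markers, 2 were called as higher (Krt20 and Vcam1, limma), where 0.227% of all genes tested were called. Havcr1, which encodes KIM-1, had a negative difference of -0.25 ± 0.20 (SE; adjusted p = 0.564, limma). Smooth muscle, pericyte and fibroblast markers separated the groups as well, with summed levels of 4.41 to 4.49 in controls and 4.62 to 5.19 under tacrolimus, the highest again on replicate 2. All 7 had a positive difference, 3 of them (Pdgfra, Col3a1 and Col1a1) at an unadjusted p under 0.05, with differences of 0.92 to 1.31, and none was called (limma). Among all genes tested, 7.04% were higher at that unadjusted threshold. T cell markers summed to 1.56 on tacrolimus replicate 2, while replicates 3 and 4, at 1.07 and 0.88, lay within the control range of 0.55 to 1.22. The part of injured tubules, stromal cells and T cells in the Clic6 difference was not tested.

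No tested partner of the CLIC proteins was called, where 0.227% of all genes tested were called. At an unadjusted p under 0.05 (limma), 7.04% of all genes were higher and 8.42% lower. Of 14 listed ezrin, radixin and moesin proteins, scaffolds and other membrane-actin partners, 13 were tested, 1 of them higher and 1 of them lower at unadjusted p under 0.05 (limma), and the median difference was -0.08. Ezr, encoding ezrin, differed by -0.19 ± 0.09, and Tprn, encoding taperin, which works with CLIC5 at the base of hair-cell stereocilia, by -0.29 ± 0.12 (SE; adjusted p = 0.357 and 0.305, limma). The hyaluronan receptor Cd44, which binds these linkers, differed by 0.85 ± 0.31 (adjusted p = 0.253), with levels of -2.03 to -1.61 in controls and -1.81 to -0.15 under tacrolimus. The 14-3-3 gene Ywhae differed by -0.14. Of the D2-like dopamine receptors, reported partners of CLIC6, only Drd3 was tested. It was well above background on 1 of 4 control and 3 of 4 tacrolimus arrays, so that no size of its difference is given.

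Relatives by fold were examined because CLIC proteins share the structure of omega-class glutathione transferases. Of 11 such genes 10 were tested, none was called, and at unadjusted p under 0.05 (limma) 2 were higher and 2 lower. The shares of all genes were 0.227% called, 7.04% higher and 8.42% lower. The median difference was -0.10. Gsto1, the closest in fold, ranged from 2.58 to 3.06 in controls and from 3.12 to 3.38 under tacrolimus, without overlap, a difference of 0.53 ± 0.12 (SE; adjusted p = 0.111, limma). Hpgds, a prostaglandin D synthase of immune cells, differed by 1.43 ± 0.36 (adjusted p = 0.128), with 2 of 4 control arrays well above background. Gstz1 and the thioredoxin gene Txn1 differed by -0.23 ± 0.09 and -0.21 ± 0.09 (adjusted p = 0.257 and 0.319).

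Other chloride channels form a list apart from the family by structure. Of 28 listed genes 26 were tested and none was called, with a median difference of -0.04. At an unadjusted p under 0.05 (limma), 1 was higher and 2 were lower. Among all genes, 0.227% were called, 7.04% were higher and 8.42% lower. Ttyh2, of the tweety family, ranged from 3.93 to 4.12 in controls and from 3.50 to 3.77 under tacrolimus, a difference of -0.41 ± 0.09 (SE; adjusted p = 0.0959, limma). The calcium-activated channel gene Ano1 differed by 0.52 ± 0.21, Best3 by 0.51 ± 0.25, and Bsnd, encoding barttin, a subunit of the renal ClC-K channels, by -0.23 ± 0.10 (adjusted p = 0.299, 0.355 and 0.305). Best3 was well above background on only 2 control and 3 tacrolimus arrays.

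Each member's profile over the 8 arrays, centred on its own mean, was compared with that of every tested gene with a symbol by the root mean square difference, and the nearest are named. For Clic6 they included Cnr1 (0.29) and Olfr1270 (0.59). The control arrays resolved neither, and their control values, like those of Clic6, lie within background. For Clic5 they were 5031425E22Rik (0.075), Mia (0.076) and Vmn1r173 (0.079), and for Clic3 Cenpx (0.049), Snn (0.073) and Pdzd11 (0.074). For Clic1 they were Engase (0.059), Blvrb (0.062) and Anapc4 (0.062). For the 10-spot Clic4 probe the nearest were Cyp4f39 (0.13), Camkv (0.14) and Abca2 (0.14), farther off than for Clic1, Clic3 and Clic5. The distances are not scaled by the spread of a profile, whose SD was 2.28 for Clic6 and 0.23 to 0.34 for the others.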

How the data were processed

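Per the file headers, Agilent Feature Extraction read each 1-colour array and gave raw, local background and background-subtracted, detrended intensities, not normalized between arrays. The authors' deposited value table holds log2 values equal, to within 5e-09, to quantile-normalized raw median intensities without background subtraction. Per the submitters' processing notes limma was used, with settings not stated there.

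Levels are log2 of the processed intensity minus the array's 75th percentile over non-control spots. Spots flagged as outliers (147 to 194 per array) were dropped before averaging by probe. A probe was tested if well above background on at least 4 of 8 arrays, and the brightest such probe represented its gene. Groups were compared across all genes with limma 3.58.1 in R 4.3.3 (lmFit, eBayes; two-sided p adjusted by Benjamini-Hochberg across every gene tested, called under 0.05); the script was tested on simulated data. RefSeq (GRCm38.p6) accessions matched 28026 probes and renamed 1651. Bounds use the lowest signal well above background on each array.

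The members, the lists and the naming rule were chosen with earlier results of these data known. The rule names every member probe, up to 4 genes of each partner list by lowest p, all genes listed around Clic6, and the 3 genes nearest to each member in profile, of which 1 is not reported here. Marker lists are given by summed level, and the markers named beside them were chosen after their values were seen. Alternatives were quantile or median scaling, normexp (offset 50), the authors' deposited table, dropping the dim-probe filter or tightening it to all 8 arrays, averaging probes per gene, robust estimation with an intensity trend, the replicate block, and leaving out each array.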

Additional observations from a re-analysis of the deposited data

Results flagged for a closer look

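In 6 of 80 groups of 4 arrays checked, 1 array lay far from the other 3; chance flags about 1 in 20 groups. Of the 12 groups of CLIC probes, 3 were among them. Clic3 on tacrolimus replicate 4 was at -0.67, below the other tacrolimus arrays. Clic5 on control replicate 1 was at 3.89, above the other controls. Clic6 on control replicate 1 was at -7.10, above the other controls, and on that array the lowest signal well above background was also the lowest of the 8, at -7.29. The summed endothelial markers on control replicate 4 were at 6.11, above the other controls. Tprn on tacrolimus replicate 1 was at 1.72, above the other tacrolimus arrays, and Drd3 on tacrolimus replicate 4 at -6.66, below the others.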

How the results depend on the processing

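Clic1, Clic3, Clic4 and Clic5 were called in 0 of their 76 fits over 19 alternatives (limma; the counts at an unadjusted p under 0.05 in the reported fit are 2 of 4). Clic1, Clic3 and Clic5 kept their direction in all of them, with differences of 0.15 to 0.34, -0.44 to -0.23 and -0.50 to -0.28. Tacrolimus replicate 4 had the highest Clic1 and the lowest Clic3 and Clic5 level. Without it their differences were 0.15, -0.27 and -0.29, against 0.26, -0.36 and -0.40 as reported. Clic4 lay between -0.25 and 0.010 with 1 array left out, and changed sign without tacrolimus replicate 4 (0.010). The Clic6 difference was positive in all 18 alternatives that tested it and was 1.05 with normexp and the 75th percentile, 1.01 with normexp and quantile normalization, and 1.56 in the deposited table. The number of genes called, 57 as reported, was 285, 131 and 180 in these 3 settings, 32 with no filter, 151 with a filter on all 8 arrays, 221 with an intensity trend and robust estimation, and 7 to 56 with 1 array left out (7 without control replicate 2, 13 without control replicate 3 or 4, 18, 22 and 33 without tacrolimus replicates 1, 2 and 3). The number of members called was 1 or 0 over the settings, and Clic6 was the only member called in any. Its difference chose the family, so nothing is read from whether it was called. The filter on all 8 arrays removes Clic6. Of all calls 82.5% were higher as reported, 68.7% with normexp and quantile normalization. With control replicate 2 and tacrolimus replicate 4 left out together, a choice made after seeing the data, 8 genes were called. The cause of these changes was not tested, beyond the smaller number of arrays or genes in some.

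Deviations of same-numbered arrays correlated at 0.156, 0.0207, 0.143 and 0.0552. Each control array correlated best with the tacrolimus array of its own number. Tacrolimus replicate 2, however, correlated better with control replicate 1 (0.0553). Whether the numbers pair the samples cannot be told from these values. The reported fit did not treat the samples as pairs, and with the replicate block 103 genes were called. Signal over background leaves the control level of Clic6 only bounded.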
